A study of Mus musculus with 4 samples.

Results

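The genes that encode the proteins of the cytoplasmic ribosome were taken by symbol: every feature named Rpl or Rps with a number, with or without the ending a, x, l, l1 or al, together with Rplp0, Rplp1, Rplp2 and Rpsa. This gave 83 of the 32285 features shared by all count tables, 31 of the small and 52 of the large subunit, and the rule itself uses symbols only, no measured value. Of these, 7 are paralogs whose symbols end in l, l1 or al (*Rpl3l*, *Rpl7l1*, *Rpl10l*, *Rpl22l1*, *Rpl36al*, *Rpl39l* and *Rps27l*). All 83 were found in the annotation of GRCm38, spread over 19 chromosomes with 4 on the X chromosome, and 29 of them hold a total of 57 small nucleolar RNA genes within their bounds.

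The counts came from gastruloids, which are aggregates of mouse embryonic stem cells that form germ layers and axial organisation in culture. All samples were wild-type gastruloids of the Zx1 embryonic stem cell line, collected on days 4, 5, 6 and 11 of culture. They had all received a pulse of the Wnt agonist Chiron before day 4. Those of day 5 and day 6 had been cultured with bFGF, VEGF and ascorbic acid since day 4, and those of day 11 had been returned to N2B27 medium after exposure to these factors, so culture time and medium cannot be told apart. Each day is 1 library of dissociated cells pooled from at least 8 gastruloids, made with a Chromium 3′ kit that counts each captured RNA molecule once by a unique molecular identifier (UMI). With 1 library per day there is no replicate of any value, no test was possible, and every interval below is an exact interval at 95% for counting error only, while a count of 0 is given the limit that 3 counts would set. Of the 6628 to 9584 cells deposited per day, 5256 to 7866 were kept, with a median depth of 24271, 28171, 24683 and 11458 UMIs at days 4, 5, 6 and 11. Cells of day 11 were shallower than those of the other days, and the matrix header of day 11 names another software version (6.0.1) than those of the earlier days (3.1.0); depth, version and day 11 cannot be told apart. Any pair of libraries shared 5 to 23 cell barcodes, at most 0.295% of a library.

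Each ribosome holds a copy of nearly every ribosomal protein beside its ribosomal RNA, and the messenger RNAs of these proteins are among the most abundant of a cell. Vertebrate ribosomal protein mRNAs typically begin with a C followed by a stretch of pyrimidines, the 5′ terminal oligopyrimidine (TOP) motif, through which growth signals set their translation and stability together. A few of the genes have paralogs with restricted expression, such as *Rpl3l* of heart and skeletal muscle and *Rpl10l* and *Rpl39l*, best known from the male germ line. Levels are given as CPM, the UMIs of a gene per 1000000 UMIs of the same cells. A UMI is counted near the 3′ end whatever the length of the transcript, so levels of different genes can be set side by side as captured molecules, but genes differ in capture.

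The bases around the annotated starts of paralogs and parents are shown because the paralogs departed most from the other genes below, and those around the start of *Rpl35* because it had the lowest ratio of day 11 to day 4 among the 80 more abundant genes. Each window holds 15 bases before and 15 bases from the RefSeq start of transcription (GRCm38.p6, in the direction of transcription, the first start listed), so its second part is the beginning of the first exon. Capitals mark the longest run of C or T where this is at least 7 bases. The windows lie at chr3:28805493-28805522 (*Rpl22l1*, plus strand), chr4:152325711-152325740 (*Rpl22*, plus), chr16:10170213-10170242 (*Rpl39l*, plus), chrX:37085208-37085237 (*Rpl39*, minus), chr9:66946071-66946100 (*Rps27l*, plus) and chr3:90213634-90213663 (*Rps27*, minus). The others lie at chr12:69184053-69184082 (*Rpl36al*, minus), chrX:134585639-134585668 (*Rpl36a*, plus), chr12:66284387-66284416 (*Rpl10l*, minus), chrX:74270801-74270830 (*Rpl10*, plus), chr17:24727811-24727840 (*Rpl3l*, plus), chr17:46782642-46782671 (*Rpl7l1*, minus) and chr2:39005117-39005146 (*Rpl35*, minus).
Rpl22l1: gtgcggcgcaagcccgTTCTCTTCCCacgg
Rpl22: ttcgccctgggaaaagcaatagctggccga
Rpl39l: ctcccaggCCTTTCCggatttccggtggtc
Rpl39: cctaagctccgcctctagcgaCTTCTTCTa
Rps27l: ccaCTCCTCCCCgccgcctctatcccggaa
Rps27: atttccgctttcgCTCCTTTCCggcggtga
Rpl36al: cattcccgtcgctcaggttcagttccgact
Rpl36a: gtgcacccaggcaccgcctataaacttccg
Rpl10l: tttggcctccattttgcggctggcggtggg
Rpl10: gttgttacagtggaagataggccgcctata
Rpl3l: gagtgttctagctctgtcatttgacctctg
Rpl7l1: gtgaggctgcgcaagcgcagtagctgaagc
Rpl35: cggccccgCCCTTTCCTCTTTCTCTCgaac
In all, 63 of the 83 genes had an entry in the table of starts. The parents *Rpl3* and *Rpl7* had none, so their windows are not shown. The counts below use all listed starts of a gene, not only the first, and take a gene when any of its windows had the run. A run of at least 7 bases, only C or T, was present for 34 of the 63 genes (54.0%). Over all 27025 genes with an entry the share was 21.3%. By start, it was present in 46.67% of 75 windows of ribosomal protein genes and in 18.55% of all 32851 windows. A run of A or G of the same length, which is C or T on the other strand, was present for 4 of the 63 genes (6.35%). Over all genes the share was 23.1%. The pyrimidine runs were at 12.5% of 24 genes of ribosome biogenesis, 15.9% of 69 genes of mitochondrial ribosomal proteins and 46.2% of 13 genes of translation factors and other known TOP messages. The last list also had runs of A or G for 38.5% of its genes. Such a run is a match of letters and no evidence of use.

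The ribosomal protein genes together held about 1 in 3 UMIs at the start of the series and about 1 in 4 at its end. Their share of all UMIs was 34.22% (34.21 to 34.23%) at day 4 and 32.48% (32.48 to 32.49%) at day 5. It was 26.87% (26.86 to 26.88%) at day 6 and 24.39% (24.38 to 24.40%) at day 11. The intervals are narrow since 27900133 to 66262932 UMIs of these genes were counted per day, and they leave out the spread between cultures, which is unknown here. A cell held on average 10109, 10007, 7638 and 3547 UMIs of ribosomal protein genes on the 4 days. The ratio of small to large subunit UMIs was almost the same on all days, at 0.814, 0.799, 0.813 and 0.817. The mitochondrial share of UMIs was 2.41% to 3.04% and did not follow the order of the ribosomal share.

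The cells also spread apart with time. The share per cell had a mean of 34.4% with an SD of 3.52 percentage points over 6555 cells at day 4, and of 24.9% with an SD of 7.25 over 7866 cells at day 11, with SDs of 4.09 and 4.80 at days 5 and 6. Taking the days in order, the cells between the 5th and the 95th percentile ran from 29.3% to 40.6%, from 27.2% to 38.8%, from 18.95% to 34.6% and from 11.9% to 36.5%. Cells under 20% numbered 1, 61, 365 and 1865 on the 4 days (0.0153%, 0.945%, 6.94% and 23.7% of cells). The share also varied with depth within a day. Over quintiles of cells by depth it lay between 33.6% and 36.0%, 32.1% and 33.3%, 26.4% and 27.6%, and 23.1% and 26.1% on the 4 days, so the ranges of days 4 and 11 were wider than the differences from day 4 to 5 and from day 6 to 11. The ranges of the 4 days did not overlap, and the deepest quintile of day 11, with a median of 26204 UMIs close to that of the earlier days, was at 23.1%.

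**Figure D1:**
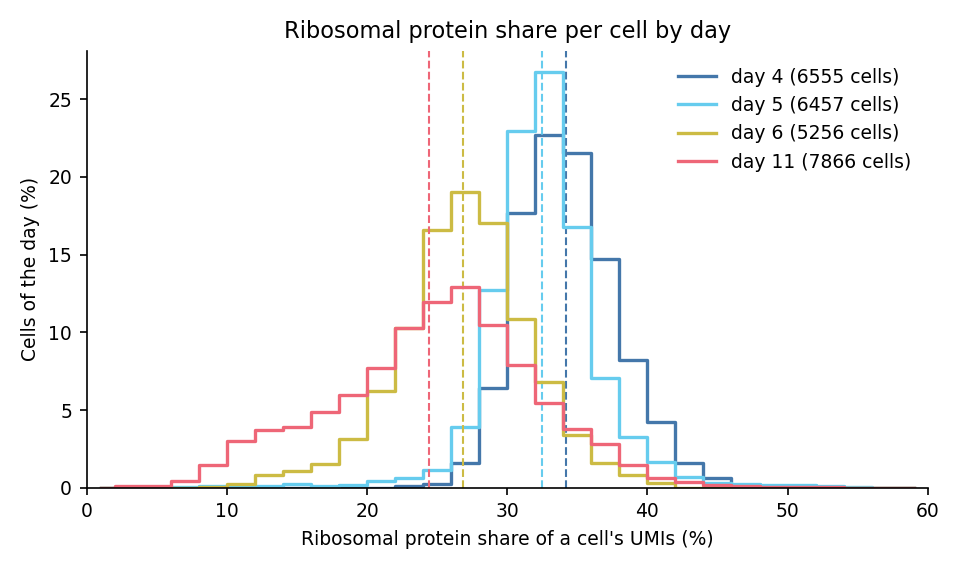
Distribution over cells of the ribosomal protein share of a cell's UMIs (x axis, %), as the percentage of the day's cells in bins of 2 percentage points (y axis); dashed lines mark the share of the day's summed UMIs. Day 4 and day 5 form narrow peaks above 30%, day 6 lies lower, and day 11 has a long tail that reaches below 10%.

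The share was carried by nearly the whole family. At day 4, 78 of the 83 genes were at 1000 CPM or more, and 73 still were at day 11, while the median gene went from 4252 CPM at day 4 through 3986 and 3353 to 3049 CPM at day 11. The 10 most abundant genes held 22.0% to 23.3% of the family's UMIs on each day, so no few genes made up the total. The highest mean over the 4 days was that of *Rps20*, a protein of the small subunit head, with 10201, 10516, 7135 and 6106 CPM. *Rpl13*, with 7973, 8442, 7066 and 6880 CPM, *Rps27a* and *Rpl23* were also among the 5 highest. *Rps27a* encodes a fusion of ubiquitin and a small subunit protein. At the other end, *Rpl39l*, *Rpl10l* and *Rpl3l* were under 10 CPM on all 4 days, and *Rpl7l1*, related to *Rpl7*, followed with 135, 116, 109 and 85.0 CPM. *Rpl29* was the lowest of the genes not named as a paralog, at 362, 293, 456 and 261 CPM.

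Among the proteins with roles at the ribosome's surface, *Rplp0*, the base of the acidic stalk that recruits translation factors, was at 5375, 6610, 5070 and 4130 CPM. Its partner *Rplp1* was at 6245, 5209, 3416 and 3991 CPM and *Rplp2* at 4083, 3007, 1952 and 2062 CPM. The ratio of the stalk base to its partners was therefore not constant over the days, although the stalk holds them in fixed numbers. *Rpsa*, a small subunit protein also known as the laminin receptor precursor, was at 6396, 7144, 6068 and 4299 CPM.

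For the comparison of days, a gene was asked to reach 10 CPM on either day, which 80 of the 83 genes did; *Rpl3l*, *Rpl10l* and *Rpl39l* did not. A gene was called when its ratio of CPM passed 1.5-fold in either direction. From day 4 to day 5, 1 of the 80 genes was higher, against 16.1% of all 7899 genes tested. It was *Rpl3*, a large subunit protein near the peptidyl transferase centre, with a ratio of 1.54. A further 5 were lower, against 16.1% of all genes. These were *Rpl22l1* with a ratio of 0.421, *Rpl23a* with 0.581, *Rpl35* with 0.593, *Rps29* with 0.602 and *Rps12* with 0.628. The median gene of the family had a log2 ratio of -0.09, close to that of all genes (-0.03), and 53 of the 80 ratios were below 1.

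From day 5 to day 6 most of the family shifted down while the median of all genes shifted up. The median log2 ratio was -0.28 over the 80 genes and 0.18 over all 8428 genes tested, and 69 of the 80 ratios were below 1. Only 2 of the 80 were higher by 1.5-fold, against 25.9% of all genes, and 10 were lower, against 10.7% of all genes. The higher ones were *Rpl22l1* (1.72) and *Rpl29* (1.56). The lower ones were led by *Rps27l* with a ratio of 0.519 and *Rps25*, a small subunit protein needed at some viral internal entry sites, with 0.530, and the others included *Rpl41*, *Rps28*, *Rps15*, *Rpl31*, *Rplp2*, *Rpl36* and *Rplp1*. CPM scales to a total of which the family is a large part. Scaling instead by the median of ratios over genes moved the median of all genes by 0.13 on the log2 scale, against which the median family member was at -0.41. Under it 75 of the 80 ratios were below 1, and 22 of the 80 genes were lower and 1 was higher by 1.5-fold. Of all 8428 genes tested, 1225 were lower and 1713 higher under this scaling. Higher genes made up 58.3% of all called genes in place of 70.7%.

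From day 6 to day 11 no member of the 80 was higher by 1.5-fold, against 17.7% of 8834 genes tested, and 5 were lower, against 13.4%. They were *Rpl35* with a ratio of 0.406, *Rpl29* with 0.573, *Rps2* with 0.584, *Rpl4* with 0.624 and *Rps6* with 0.645. *Rps6* is the small subunit protein phosphorylated by S6 kinases. The median log2 ratio was -0.14, with 54 of 80 ratios below 1 and 0.02 as the median of all genes.

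Over the whole course, from day 4 to day 11, 31 of the 80 genes were lower by 1.5-fold, against 17.7% of 8910 genes tested, and 0 were higher, against 35.0% of all genes. No test or p was computed for this or for any other count. The median log2 ratio was -0.49, against 0.21 over all genes, and 79 of the 80 ratios were below 1; the remaining gene, *Rpl21*, had a ratio of 1.08. The small subunit (31 genes, median -0.55) and the large subunit (49 genes, median -0.47) moved to a similar extent. The lowest ratio was that of *Rpl35*, a protein at the exit of the nascent chain tunnel, whose level was 2197, 1302, 1592 and 646 CPM on days 4, 5, 6 and 11, a ratio of 0.294. Its exons overlap those of *Wdr38* and *Arpc5l* on the opposite strand, as the exons of 18 of the 83 genes overlap some gene there; the 3′ kit keeps the strand. It was followed by *Rps27l* (0.356), *Rpl12* (0.433), *Rpl23a* (0.449), *Rps25* (0.454), *Rps12* (0.456), *Rpl4* (0.460), *Rps2* (0.476), *Rpl38* (0.485) and *Rplp2* (0.505). The fall was thus shared but uneven, with an SD of 0.349 on the log2 scale between the 80 genes, and 51 of them within 0.3 of their median.

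**Figure D2:**
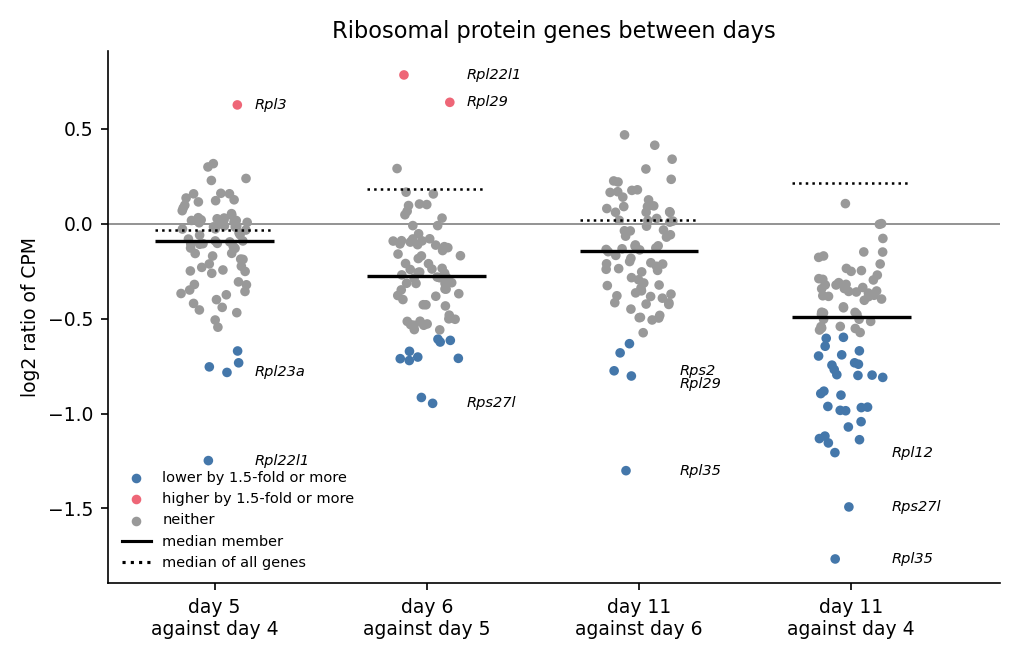
Each dot is 1 of the 80 ribosomal protein genes tested, placed by its log2 ratio of CPM between 2 days (y axis) for 4 pairs of days (x axis); solid lines mark the median of these genes, dotted lines the median of all genes tested, and the 3 genes farthest from the solid line are named. The solid line lies below the dotted line in every pair, by the most from day 4 to day 11 (-0.49 against 0.21).

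Genes around the ribosome did not all move with its proteins. Of 30 genes of ribosome biogenesis, 25 were lower by 1.5-fold at day 11 than at day 4 and 0 were higher, and their summed share of UMIs went from 1.31% to 0.525%. Among them were *Npm1* and *Ncl*, abundant proteins of the nucleolus, with 7463, 6065, 4804 and 3042 CPM and 2216, 1230, 997 and 748 CPM on the 4 days. *Fbl*, the methylase of box C/D ribonucleoproteins, was at 286, 203, 169.2 and 107 CPM. The median log2 ratio of this list was -1.38, farther from 0 than that of the ribosomal proteins. Over all genes tested 17.7% were lower and 35.0% higher between these days. In the single steps 10 of 30, 6 of 29 and 14 of 29 were lower, against 16.1%, 10.7% and 13.4% of all genes, and none was higher. Of 19 genes of translation factors and other known TOP messages, 6 were lower and 2 higher at day 11 than at day 4, to be read against the same 17.7% and 35.0% of all genes, with a median log2 ratio of -0.37. *Eef1a1*, the elongation factor that brings transfer RNA to the ribosome, was at 8058, 9341, 10018 and 6255 CPM. *Pabpc1*, which binds the poly(A) tail, was at 1054, 791, 608 and 327 CPM, whereas *Vim*, the intermediate filament of mesenchymal cells, was at 413, 1302, 1482 and 1565 CPM. The 78 mitochondrial ribosomal protein genes had a median log2 ratio of 0.05, with 3 higher and 4 lower, both under these shares of all genes, and a summed share of 0.804% at day 4 and 0.819% at day 11.

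To see in which cells the share differed, cells high for a marker were set against all other cells of the same library. High cells held at least 3 UMIs of the gene and were in the top 5% of the day's cells by its fraction of UMIs, at least 50 such cells were asked for, and UMIs of the marker itself were left out of the total. These sets mark cells by 1 gene each, may overlap, and are no clusters. The other cells are a mixed remainder that can include further cells of the marked type. At day 11 they held *Myl7* at 2071 CPM, and deciles of *Myl7*-positive cells that lie wholly or mostly among them were at 3504, 10034 and 17360 CPM.

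*Pou5f1*, a factor of pluripotent cells, marked cells with a slightly higher ribosomal share. At day 4 the 328 *Pou5f1*-high cells were at 34.8% and the other cells at 34.2%, a difference of 0.62 percentage points, which was 0.207 with the top 2% of cells and 1.22 with the top 10%. At day 5 the 306 high cells were at 34.7%, and the others at 32.4%, a difference of 2.36 points. The median of the high cells at day 5 (34.6%) lay above the upper quartile of the other cells (34.4%). All 6 other pluripotency markers checked, among them *Utf1*, *Zfp42* and *Tdgf1*, were over 2-fold higher in the high cells at day 4 and at day 5, although *Fgf5* was below 1 CPM in both sets of day 5. At day 5, 80 ribosomal protein genes reached 10 CPM in the other cells, and among them only *Rps12* was higher by 1.5-fold in the high cells, with 14.0% of all genes as background. *Rpl39l* and *Rpl10l* reached 10 CPM through the high cells alone, so that they had to differ. At day 6 only 21 cells and at day 11 no cell qualified.

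*Sox2* is shared by pluripotent and neural progenitor cells. The *Sox2*-high and *Pou5f1*-high sets shared 137 cells at day 4 and 183 at day 5 (68.8% of the *Sox2*-high cells and 59.8% of the *Pou5f1*-high ones at day 5). The share differed from other cells by 0.96, 2.28, 0.85 and -0.37 points on the 4 days. Of 6 neural markers, 4 were over 2-fold higher in the *Sox2*-high cells on days 4 and 5 and 5 on days 6 and 11. *Pax6* was at 3.09, 2.12, 56.3 and 63.1 CPM in them. All markers counted on days 4 and 5 were below 10 CPM in these cells, so the counts of those days rest on low levels. *Ncam1* was lower in the high cells at day 5 (11.9 against 14.9 CPM) and day 11 (120 against 173 CPM). *T*, the Brachyury gene of primitive streak and tail bud cells, marked sets that differed by 0.68, -0.09 and -1.23 points on days 4, 5 and 6; at day 4 the value was 0.433 with the top 2% of cells. These are small beside the spread of cells within a set, whose quartiles at day 6 were 23.9% and 27.5% in *T*-high cells.

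The genes of ribosome biogenesis departed from the ribosomal proteins in some of these sets. In *T*-high cells of day 6, 17 of 30 biogenesis genes were higher by 1.5-fold, against 10.0% of all genes, but 1 of the 80 ribosomal protein genes (*Rps27l*, 1155 against 748 CPM). In *Sox2*-high cells 14 of 30 biogenesis genes were higher at day 6, against 11.4% of all genes, and 14 of 29 at day 11, against 21.0%, while 0 of 80 ribosomal protein genes were so on either day. On days 4 and 5 the median log2 ratio of the biogenesis genes was nearer to 0, at -0.16 and 0.13 in *T*-high, -0.00 and 0.26 in *Sox2*-high and -0.01 and 0.20 in *Pou5f1*-high cells, against 0.67 in *T*-high cells of day 6 and 0.55 and 0.56 in *Sox2*-high cells of days 6 and 11. The high cells of these later sets were deeper than the other cells. Medians were 40000.0 against 24487.0 UMIs for *T* at day 6. For *Sox2* they were 33153.0 against 24301.0 at day 6 and 13563.5 against 11375.0 at day 11. The part of depth in these counts was not tested.

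The sets marked by a neuronal and by a cardiac muscle gene lay at the lower end. *Elavl3*, an RNA-binding protein of neurons, marked 340 cells at day 11 whose share was 17.28% (17.24 to 17.31%), against 24.64% (24.63 to 24.65%) in the other cells, a difference of -7.36 points. The median share was 16.6% in these cells and 25.7% in the others, and 94.1% of the *Elavl3*-high cells lay below the median of the other cells. All 6 neuronal markers checked were higher, with *Tubb3* at 2435 against 57.0 CPM and *Stmn2* at 2072 against 76.3 CPM. Depth was similar, with medians of 10157.0 and 11579.5 UMIs. A neuron of this set held on average 1958 UMIs of ribosomal protein genes against 3619 in other cells, 0.541 times as many, and 0.848 times as many UMIs of other genes. In this set 25 of 80 ribosomal protein genes were lower by 1.5-fold, against 23.8% of all genes, and 79 of 80 ratios were below 1 with a median log2 ratio of -0.47. *Rpl22l1* was the farthest from the rest with 389 against 996 CPM, a ratio of 0.390. *Rpl23a* was the exception with 1071 against 1045 CPM.

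*Myl7*, the atrial myosin light chain, marked the largest difference. At day 11 the 394 *Myl7*-high cells had a share of 14.27% (14.25 to 14.29%) and the other cells one of 25.33% (25.32 to 25.33%), a difference of -11.05 points. The quartiles of the high cells were 11.6% and 16.7% and those of the others 21.4% and 29.8%, and 99.2% of the high cells lay below the median of the others. At day 6 the 263 high cells were at 19.77% and the others at 27.26%, a difference of -7.49 points at nearly equal median depths of 25319.0 and 24653.0 UMIs. All 6 other cardiac muscle markers were over 2-fold higher in the high cells on both days, among them *Tnnt2* at 8335 against 1079 CPM and *Myh6* at 3602 against 368 CPM at day 11. At day 4 and day 5 the cells highest for *Myl7* held it at 422 and 221 CPM, only 1 and 2 of the 6 markers were over 2-fold higher, and the share differed by -0.91 and 0.59 points. On these 2 days the set does not mark cardiac muscle.

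A share can be low because ribosomal protein RNA is scarce or because other RNA is abundant, and the 2 sets of day 11 differed in their UMIs per cell, a quantity that also depends on how much RNA was captured from a cell. *Myl7*-high cells held 3105 UMIs of ribosomal protein genes on average against 3570 in other cells, 0.870 times as many, and 1.83 times as many UMIs of other genes. The 7 cardiac genes used for the set and its check held 5.76% of UMIs in the high cells. Leaving them and mitochondrial genes out of the total, the share was 15.5% against 26.1%, a difference of -10.65 points, and the same step in *Elavl3*-high cells gave -7.42 points. At day 6 *Myl7*-high cells held 5404 UMIs of ribosomal protein genes against 7755, 0.697 times as many, with 1.08 times as many UMIs of other genes. The mitochondrial share was also higher in them, at 4.67% against 2.63% at day 11 and 3.96% against 2.99% at day 6; its part in the result was not tested beyond the value without these genes.

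In *Myl7*-high cells 72 of 80 ribosomal protein genes were lower by 1.5-fold at day 11, against 37.2% of all genes, with a median log2 ratio of -0.88 (-0.32 over all genes). At day 6, 16 of 80 were lower, against 23.9% of all genes, and all 80 ratios were below 1 with a median of -0.49. The remaining genes at day 11 included *Rplp1* (3325 against 4047 CPM), *Rps27l* (422 against 518 CPM) and *Rpl36al* (849 against 813 CPM), the last being the gene with a ratio above 1. The ratio of small to large subunit UMIs was 0.749 in these cells against 0.820 in the others, the widest gap among the sets of day 11. Of 29 biogenesis genes 22 were lower at day 6 and 20 at day 11, whereas the 78 mitochondrial ribosomal protein genes had median log2 ratios of -0.01 and 0.32. The cytoplasmic and mitochondrial ribosomal proteins thus lay on opposite sides of the median of all genes in these cells.

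Along the level of *Myl7* the share was nearly flat over the lower deciles and fell from decile to decile over the upper ones. The 4225 cells of day 11 with no *Myl7* UMI were at 26.5%, and deciles of the positive cells with up to 320 CPM stayed between 26.1% and 26.7%. Above this the share was 23.9% at 3504 CPM, 20.02% at 10034 CPM, 17.1% at 17360 CPM and 14.2% at 30503 CPM. At day 6 it was 27.8% in cells without a UMI, 24.5% in the decile at 3444 CPM and 19.9% in the top decile at 15009 CPM. Along *Elavl3* the share was 24.8% in negative cells of day 11 and 23.1% in the lowest decile of positive cells, and it was between 16.7% and 17.8% in every decile from 221 CPM upwards. These bins were drawn after the differences had been seen.

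**Figure D3:**
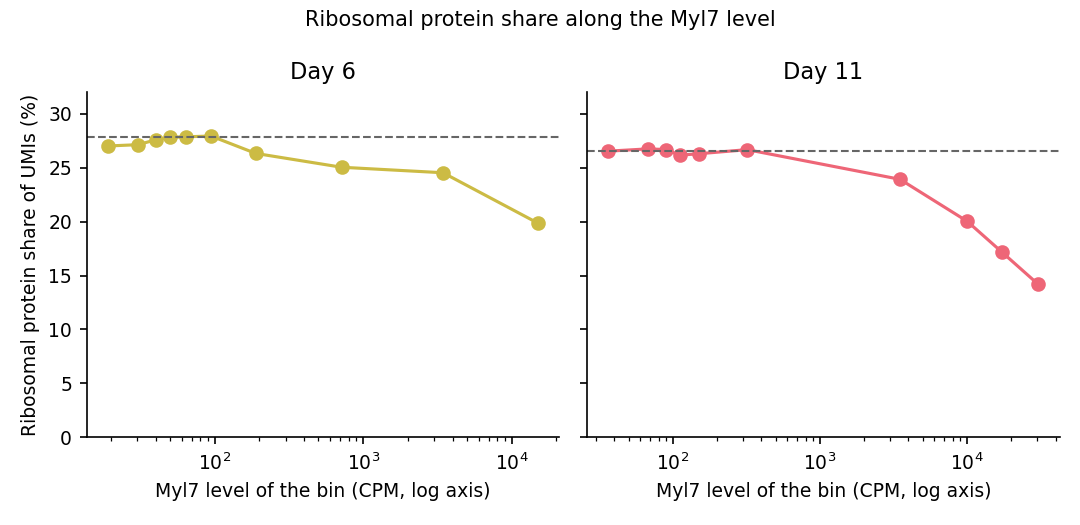
Ribosomal protein share of UMIs (y axis, %) in deciles of the *Myl7*-positive cells against the *Myl7* level of the decile (x axis, CPM on a log scale) at day 6 and day 11; the dashed line is the share of cells with no *Myl7* UMI. The share stays near the dashed line in the lower deciles and reaches 19.9% at day 6 and 14.2% at day 11 in the top one.

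Endothelial and skeletal muscle cells lay at the upper end at day 11. *Cdh5*, the cadherin of endothelium, marked 275 cells with a share of 29.59% (29.56 to 29.63%) against 24.03% (24.02 to 24.03%), a difference of 5.57 points, after 2.81 points at day 6 and 0.25 at day 5. All 6 endothelial markers were higher at days 6 and 11, with *Pecam1* at 343 against 5.60 CPM at day 11. These cells were deeper, with medians of 23798.0 and 11286.0 UMIs, and held 8078 UMIs of ribosomal protein genes against 3383. Weighting the other cells to the same depths gave a difference of 7.55 points, and taking the top 2% of cells gave 3.79 points. In 4 bins of *Cdh5*-positive cells by rising *Cdh5* level the share was 29.5%, 30.8%, 30.0% and 27.3%, so it did not rise with the level. In this set 5 of 80 ribosomal protein genes were higher by 1.5-fold, against 15.7% of all genes, namely *Rpl28*, *Rplp0*, *Rps20*, *Rps3* and *Rps6*. *Rplp0* had the largest ratio, with 6586 against 3958 CPM. *Myog*, the myogenic factor of differentiating myoblasts, marked 110 cells at 29.9% against 24.3%, a difference of 5.65 points. All 5 other skeletal muscle markers were over 2-fold higher, with *Myod1* at 393 against 1.99 CPM. In them 5 of 80 ribosomal protein genes were higher, against 8.87% of all genes, namely *Rpl14*, *Rpl22l1*, *Rpl41*, *Rps12* and *Rps2*, and 79 of 80 ratios were above 1. The *Myog*-high and *Myl7*-high sets therefore stood at opposite ends of the sets of day 11, at 29.9% and 14.3%, with median depths of 23223.5 and 18912.0 UMIs. The *Myl7*-high set holds only the cells with the most *Myl7*. Deciles of *Myl7*-positive cells at 3504, 10034 and 17360 CPM were at 23.9%, 20.02% and 17.1%.

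Further sets were not checked against other markers. *Epcam*-high cells, which include epithelial and pluripotent cells, differed by 2.00, -0.37, 2.37 and 2.11 points on the 4 days, and 51 *Tyrobp*-high cells of day 11, a marker of myeloid cells, differed by 0.82 points. Cells high for *Mki67*, a gene of dividing cells, were below the others on each day, with differences of -1.64, -2.16, -3.66 and -3.29 points. At day 11 they shared 1 cell with the *Myl7*-high set. *Mki67*-high cells were also deeper than the others on each day and held 0.955 to 1.195 times as many UMIs of ribosomal protein genes per cell.

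**Figure D4:**
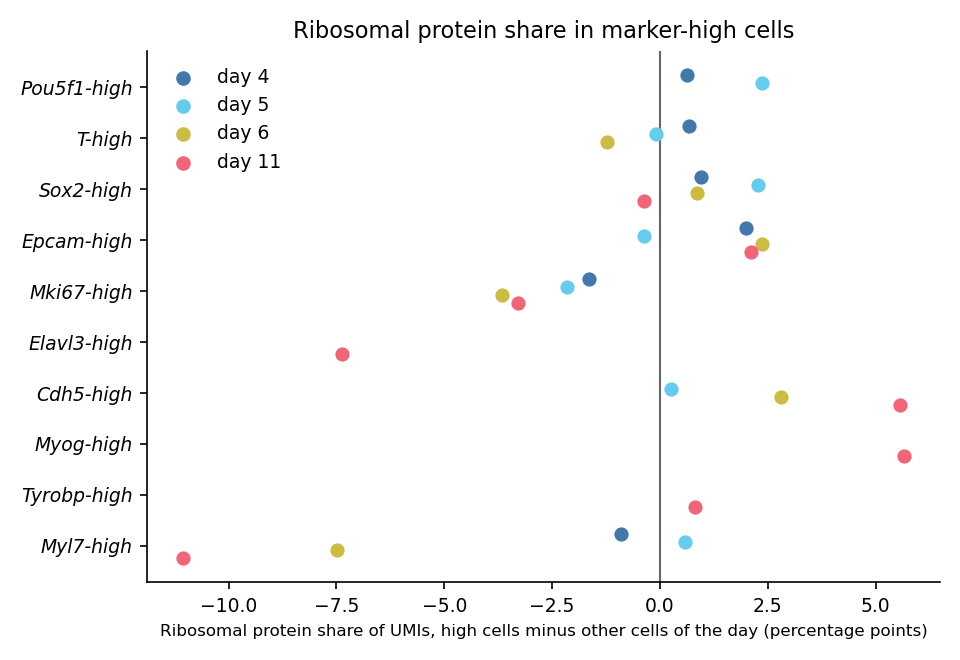
Difference in the ribosomal protein share of UMIs between cells high for a marker gene and all other cells of the same day (x axis, percentage points), with 1 row per marker and 1 dot per day for which at least 50 cells qualified. *Myl7*-high and *Elavl3*-high cells of day 11 lie farthest to the left, at -11.05 and -7.36 points, and *Myog*-high and *Cdh5*-high cells farthest to the right, at 5.65 and 5.57 points.

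The paralogs fell into 2 groups by level. *Rpl22l1*, *Rpl36al*, *Rps27l* and *Rpl7l1* were found in most cells, and *Rpl39l*, *Rpl10l* and *Rpl3l* in few. Reads that fit a parent and its paralog or processed copies equally well are not assigned, so the values of near-identical genes are uncertain. *Rpl22l1*, which can take the place of *Rpl22* in the ribosome, had 60.7, 25.2, 62.7 and 64.2 UMIs per 100 of *Rpl22* on the 4 days. The dip at day 5 was that of the paralog, at 1799, 757, 1303 and 976 CPM, while *Rpl22* was at 2965, 3005, 2078 and 1521 CPM. *Rps27l*, known as a target of p53, was at 1435, 1464, 760 and 510 CPM and had 46.0, 68.5, 40.4 and 31.97 UMIs per 100 of *Rps27*. *Rpl36al* had 40.2, 44.2, 44.0 and 57.2 UMIs per 100 of *Rpl36a*. In *Myl7*-high cells it had 60.5 against 43.4 in other cells at day 6 and 101.8 against 55.1 at day 11, so that paralog and X-linked parent had about equal numbers of captured molecules there. *Rpl7l1* stayed between 3.21 and 4.08 UMIs per 100 of *Rpl7*.

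**Figure D5:**
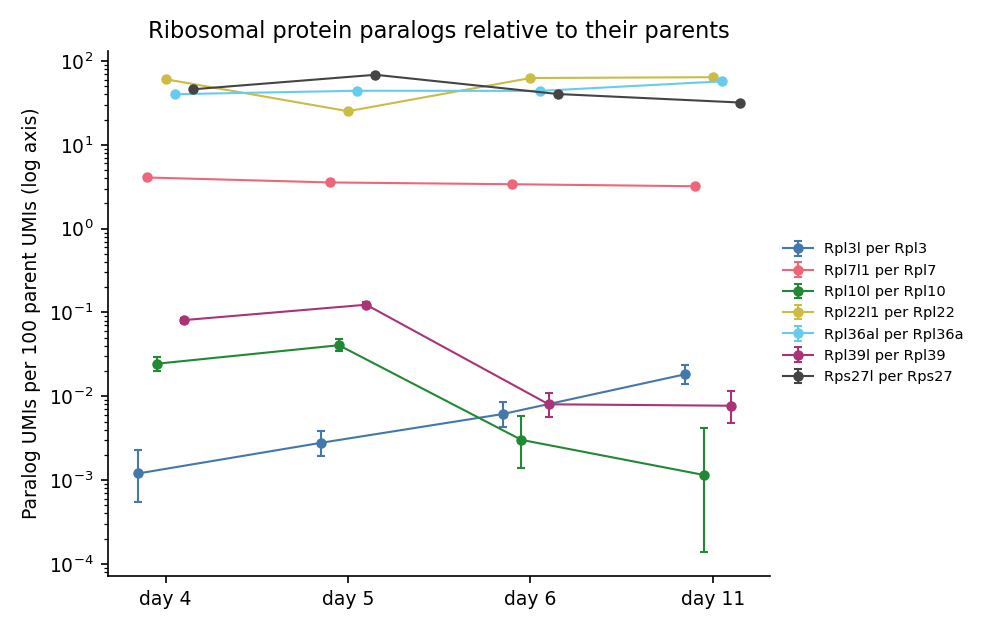
UMIs of each of 7 paralogs per 100 UMIs of its parent gene (y axis, log scale) at days 4, 5, 6 and 11 (x axis); bars are exact 95% intervals for counting error and are smaller than the dots for the abundant genes. *Rpl39l* and *Rpl10l* are lower at days 6 and 11 than before, *Rpl3l* is higher at day 11 than at day 4, and *Rpl22l1* dips at day 5.

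*Rpl39l* had 766, 926, 39 and 22 UMIs on the 4 days (3.96, 4.66, 0.261 and 0.192 CPM). Most of those at day 5 lay in few cells. The 306 *Pou5f1*-high cells held 791 of the 926 UMIs (85.4%), and *Rpl39l* was at 74.1 CPM in them and at 0.717 CPM in the other cells, a ratio of 103 (86.0 to 125). At least 1 UMI was found in 144 of the 306 cells (47.1%), against 0.764% of the other cells. After every cell was thinned to 5000 UMIs the values were 22.2% and 0.293%. *Cdh5*-high cells of the same day, at a median of 37071.5 UMIs against 30755.0 in the *Pou5f1*-high cells, had 1 positive cell of 72 (1.39%). At day 4 the *Pou5f1*-high cells held 333 of 766 UMIs (43.5%) and the *Sox2*-high cells 518 (67.6%), and the level in *Pou5f1*-high cells was 32.1 against 2.36 CPM, a ratio of 13.6. *Rpl10l* was found in the same sets, with 123 of its 150 UMIs at day 5 in *Pou5f1*-high cells (82.0%), in 72 of 306 cells, and 70 of its 100 UMIs at day 4 in *Sox2*-high cells. It had 9 and 2 UMIs at days 6 and 11, and all 9 of day 6 lay in 5 *Sox2*-high cells.

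*Rpl3l* had 9, 33, 38 and 65 UMIs on the 4 days, and its level of 0.568 CPM at day 11 (0.439 to 0.724) was above that of 0.0465 CPM at day 4 (0.0213 to 0.0882). Its parent *Rpl3* was at 3097 and 3866 CPM on those days, and the paralog had 0.0184 UMIs per 100 of its parent at day 11 (0.0142 to 0.0234). At day 6 *Myl7*-high cells held 21 of the 38 UMIs, in 19 of 263 cells, at 2.88 against 0.120 CPM, a ratio of 24.03 (12.1 to 48.5). At day 11 they held 24 of the 65 UMIs, in 22 of 394 cells (5.58%), at 2.72 against 0.388 CPM, a ratio of 6.99 (4.04 to 11.9). *Elavl3*-high cells of day 11 had 0 cells of 340 with a UMI of it, which allows a share of up to 0.882% by the limit of 3 counts, at a median of 10157.0 UMIs against 18912.0 in *Myl7*-high cells. *Sox2*-high cells had 0 of 390, which allows up to 0.769%, and *Cdh5*-high cells 1 of 275. The skeletal muscle set, *Myog*-high cells of day 11, had 0 of 110, which allows up to 2.73%. Its median depth was 23223.5 UMIs. These limits are for cells with a UMI and not for cells that express the gene. After thinning to 5000 UMIs, 0.836% of *Myl7*-high and 0.125% of other cells of day 11 were positive, which rests on 3 high cells. *Rpl3l* was not restricted to the cardiac set. Of 51 *Tyrobp*-high cells of day 11, 5 (9.804%) had 1 UMI each, at 3.698 against 0.531 CPM, a ratio of 6.97 (2.18 to 17.2). This percentage and level were above those of *Myl7*-high cells of that day, but rest on 5 UMIs, so these sets cannot be ranked. *Cdh5*-high cells of day 6 held 9 of the 38 UMIs, a ratio of 4.31 (1.79 to 9.35) to other cells. *Pou5f1*-high cells of day 5 had 10 of 33 UMIs, a ratio of 7.67 (3.26 to 16.8). *Sox2*-high cells of that day, a set that overlaps with them, had 12 of 33, a ratio of 11.5 (5.16 to 24.5). These ratios were not below that of *Myl7*-high cells of day 11, but rest on few UMIs.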

How the data were processed

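For each of the 4 libraries the authors deposited raw UMI counts of called cells, not normalized, made with Cell Ranger 3.1.0 on mm10 per the labels; the matrix header of day 11 names 6.0.1. As in the study, cells were kept with more than 200 genes. The study set its other limits by hand for each library without giving them, and here cells were asked for under 20% mitochondrial UMIs and a log10 UMI total no farther than 3 scaled median absolute deviations from the library's median. A lower limit on ribosomal UMIs, which the study also set, was left out since that share is the readout, and 5% was tried as an alternative. The 8% of cells with the highest Scrublet score (scanpy 1.11.5, 2 simulated doublets per cell) were removed as doublets, 457 to 684 per day; the automatic threshold would have marked 7, 1, 464 and 272 cells. The kept libraries hold 193642002, 198908462, 149398127 and 114389896 UMIs.

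UMIs were summed over cells and divided by all UMIs of the same cells (CPM or percent). With 1 library per day and no replicates, no test was made; shares have exact Clopper-Pearson intervals, levels exact Poisson intervals and ratios exact conditional binomial intervals, at 95%, for counting error only. UMI sums at 0 are given the limit that 3 counts would set. The step that calls genes was tested on simulated data. Positions and overlaps came from GENCODE vM21 (GRCm38), start windows from RefSeq (GRCm38.p6), and counting of reads by strand follows the 3′ kit. Genes were named by rule: the 5 highest and 5 lowest, up to 10 past 1.5-fold per comparison, all paralogs with their parents, the 3 farthest from the median in each set of high cells, the stalk genes and *Rpsa*. Genes named to illustrate the other lists and markers were chosen after their values were seen. The members and lists were chosen with earlier results of these data known. The alternatives were doublets left in, no quality limits beyond 200 genes, the ribosomal limit, other totals, other limits for high cells, weighting by depth, other folds, another CPM minimum and median-of-ratios scaling. A few results are not reported here. Python 3.11.15, numpy 2.4.6, scipy 1.17.1 and pandas 2.3.3 were used.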

Additional observations from a re-analysis of the deposited data

Results flagged for a closer look

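Ribosomal protein features outside the rule also held UMIs, which are signals in features that the comparisons did not use. *Rps3a1*, the gene of a small subunit protein that the rule missed by its symbol, had 1405453 UMIs over the 4 days, at 1812, 2355, 2356 and 2047 CPM. Unlike the median member of the family, it was higher at day 11 than at day 4. *Rps27rt*, a copy of *Rps27*, had 49819 UMIs, *Rpl9-ps6* 45999, *Rpl36a-ps1* 31297 and *Rpl10-ps3* 24948, each at 26.5 to 100 CPM on every day, and *Rpl9-ps1* and *Rpl36-ps4* had 26 and 14 UMIs. The named pseudogenes share most of their sequence with their parents, and how the reads of a pair were divided was not tested.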

How the results depend on the processing

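No paired analysis was possible because each day has 1 library and no result comes from a test, and for the same reason no replicate could be left out. Below, a share counts as moved when it left its counting interval, which is narrow; none of the results changed direction. The share at days 4, 5, 6 and 11 was 34.39%, 32.58%, 26.92% and 24.45% with doublets left in, 34.38%, 32.6%, 26.94% and 24.89% as the mean over cells, and 35.06%, 33.39%, 27.71% and 25.09% without mitochondrial UMIs in the total. With every cell of more than 200 genes it was 34.48%, 32.61% and 24.64% at days 4, 5 and 11, and asking for over 5% ribosomal UMIs gave 24.4% at day 11, so the order of days held under all of these.

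The difference of *Pou5f1*-high cells at day 4 was 0.416 points with doublets, 0.207 in the top 2% of cells, 1.22 in the top 10% and 0.751 with other cells weighted to the same depth. In the same order *T*-high cells at day 4 gave 0.522, 0.433, 0.572 and 0.586, *Sox2*-high cells at day 6 0.801, 1.13, 0.704 and 1.07, *Elavl3*-high cells at day 11 -6.88, -7.80, -6.50 and -8.20, *Cdh5*-high cells at day 11 5.47, 3.79, 5.47 and 7.55, and *Myl7*-high cells at day 11 -10.86, -11.76, -10.14 and -10.71. Asking for over 5% ribosomal UMIs gave -11.08 for the last. The *Pou5f1* and *T* differences at day 4 moved by over 1.5 times with the limit on high cells (0.207 and 0.433 in the top 2%).

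Under a looser fold limit 17, 32 and 25 genes were lower from day 4 to 5, 5 to 6 and 6 to 11. In the last step 3 were higher under this limit. At 2-fold 1, 0 and 1 were lower, and 0 were higher in the first and the second step. Shares of all genes at these other limits are not given. The counts therefore show only how the number of called genes depends on the limit, not whether it exceeds a background. Median-of-ratios scaling left 1 of the 80 genes higher and 22 lower from day 5 to day 6. Of all 8428 genes tested there, 1713 were higher and 1225 lower. From day 4 to day 5 this scaling put 45 in place of 53 ratios below 1. Low depth at day 11 limits *Rpl3l*, *Rpl10l* and *Rpl39l*, which had 65, 2 and 22 UMIs there.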

Other observations

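Of the 22 UMIs of *Rpl39l* at day 11, 12 lay in 1 *Epcam*-high cell, and the other 10 were spread over 8 of the cells outside this set. *Rps12* was higher in the pluripotency sets, at 7263 against 4503 CPM in *Pou5f1*-high cells of day 5 and 7157 against 4527 CPM in *Sox2*-high cells of that day. Among genes outside the rule, *Fau*, a fusion of a ubiquitin-like protein and a small subunit protein, was at 4486, 4195, 4033 and 4808 CPM and *Rack1*, the scaffold on the small subunit head, at 2270, 2048, 2282 and 2073 CPM.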
